A study of Mus musculus with 32 samples.

Results

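The genes described here are 55 genes of germ cell genome defence, germ cell identity and meiosis. They were taken by name from a list chosen with earlier results of these data known. All 55 were found among the 21887 protein-coding genes of the RefSeq table for assembly GRCm38. That assembly has the same chromosome coordinates as the build mm10 named in the submitters' processing notes. The list holds 20 factors of the piRNA pathway, 5 of DNA methylation, 4 RNA-binding regulators of germ cells, 3 of meiotic entry, 3 meiotic cohesins, 8 of the synaptonemal complex and chromosome axis, 11 of meiotic recombination, and Brdt. The study mapped trimethylation of lysine 9 of histone H3 (H3K9me3), which is typical of heterochromatin, in mouse male germ cells with ChIP-seq. Germ cells were taken from testes at 2 embryonic stages (E13.5 and E16.5, in days) and 2 postnatal ones (P0 and P3). All animals carried the Mvh-Venus transgene, a fluorescent reporter, and were either Morc1 (+/-), here het, or Morc1 (-/-), here KO. There was no Morc1 wild-type group, so each comparison of genotypes sets KO against het. Each of these 8 groups had 2 H3K9me3 samples and is represented by 1 deposited list of peaks, which gives positions only.

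Germ cells silence transposons with PIWI proteins, which carry small RNAs called piRNAs. In the fetal testis this pathway directs DNA methylation to transposons. Many genes of the pathway, and many genes needed later for meiosis, have CpG-rich promoters that are silenced by DNA methylation and repressive histone marks in other tissues and are switched on in the germ line. Male germ cells stop dividing before birth and enter meiosis only after it. The lists hold no expression values, so neither the cell type nor the loss of Morc1 was checked from them.

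The whole lists held 52628 (E13.5 het) to 93523 (P0 KO) peaks, covering 166.1 to 339.5 Mb. The shortest peak of a list was 1001 bp long, except in the P3 KO list, where it was 970 bp. Read depth and the settings of the peak calls are not given in the sources used here, and both affect how many peaks a list holds. Within Morc1 itself (chromosome 16, 48431237 to 48630905), with 5 kb on each side, het peaks covered 2.002, 1.62, 5.39 and 3.52 kb in stage order, from E13.5 to P3. The KO values were 1.56, 0, 0 and 1.00 kb. Since a group has a single list, replicate spread is unknown and none of the values below was tested.

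The clearest pattern among the 55 genes lay at their starts and at E13.5, in an analysis chosen after seeing the data. Annotated starts were available for 46 of the members in the RefSeq promoter table (GRCm38.p6), and a start counted as marked when it lay inside a peak. At E13.5, 8 of the 46 genes were marked in het and 14 in KO. The share was 17.4% in het and 30.4% in KO, where 4.16% and 5.59% of the 17492 coding genes with an annotated start were marked. At E16.5 no member start was marked in either genotype, with 4.62% of coding genes marked in het and 4.32% in KO. At P0 the start of Spata22 alone was marked in het, and none in KO, beside 4.77% and 5.35% of coding genes. At P3 no member start was marked, beside 4.32% of coding genes in het and 4.97% in KO.

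**Figure D1:**
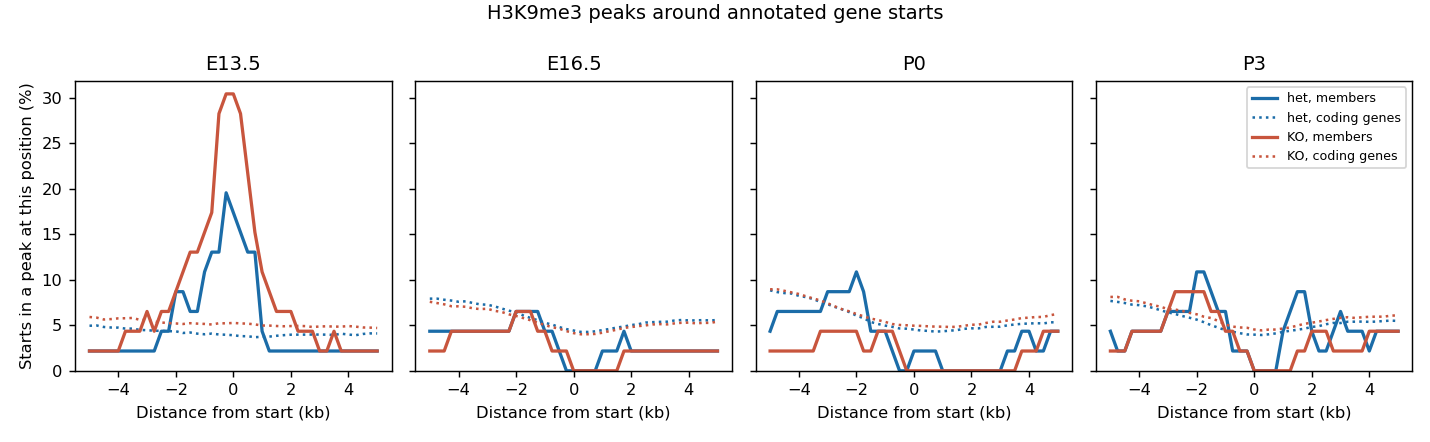
Percent of gene starts (vertical axis) that lay in an H3K9me3 peak at each distance from the start (horizontal axis, kb, negative values upstream), by stage; solid lines are 46 members, dotted lines all 17492 coding genes with an annotated start, blue het and red KO. At E13.5 the members' lines are highest at or just upstream of the start, with 19.6% at -250 bp and 17.4% at the start in het and 30.4% at both in KO, and at the later stages they stay at or below 10.9% over the whole range.

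The marked genes came from the piRNA pathway, the synaptonemal complex, meiotic entry and recombination. Both E13.5 lists marked Mael, a piRNA factor of germ cell granules, and Asz1, a piRNA factor at mitochondria. They also both marked Sycp1 and Tex12, which belong to the centre of the synaptonemal complex, and Sycp2, which belongs to its lateral element. The other starts marked in both lists were those of Meioc, which acts in meiotic entry, Spata22, a partner of Meiob in recombination, and Brdt, which encodes a testis bromodomain protein. The KO list alone marked Mov10l1, the helicase that feeds piRNA precursors into processing, and Tdrd1 and Tdrd9, a pair of Tudor domain proteins. It alone also marked Gtsf1, a cofactor of PIWI proteins, Henmt1, which methylates piRNA ends, and Sycp3, the partner of Sycp2. No member start was marked in the het list alone. Among all coding genes, 634 starts were marked in both lists, 344 in KO alone and 94 in het alone. By role, the KO list marked 7 of 15 piRNA genes, 4 of 8 genes of the synaptonemal complex and axis, and 1 of 9 recombination genes. None of the 5 DNA methylation genes, 3 RNA-binding regulators or 3 cohesins with an annotated start was marked at E13.5. The start of Dazl, a germ cell regulator, was not marked, although the E13.5 KO list had 1.00 kb called within 5 kb of the gene.

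The 6 starts marked in KO alone differed in how near a het peak lay. In het, the nearest peak was 57 bp from the start of Henmt1 and 114 bp from that of Mov10l1, so these calls differ by the placing of a peak edge. The nearest het peak lay 9665 bp from Tdrd1, 10414 bp from Tdrd9, 56501 bp from Sycp3 and 172090 bp from Gtsf1. The peaks over Sycp3 and Gtsf1 in KO had the list's shortest length, 1001 bp. When a peak within 1 kb of the start was enough, 11 members counted in het and 15 in KO at E13.5, beside 6.82% and 8.95% of coding genes.

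The peaks over member starts were short. Over Mael (chr1:166201385-166238744, minus strand) the het peak ran from 166237756 to 166239880 (2125 bp) and the KO peak from 166235978 to 166239613 (3636 bp). Over Sycp1 (chr3:102818499-102936100, minus strand) the het peak was 1260 bp long and the KO peak 1924 bp. Spata22 had a peak of 1257 bp in het and 4018 bp in KO at E13.5, and its P0 het peak was 1001 bp long. Of the 8 starts marked in both lists, 7 had the longer peak in KO. Asz1 was the exception, with 1996 bp in het and 1520 bp in KO. Over all coding genes the KO peak was the longer at 70.7% of such starts. The median length over the 8 member starts was 1320 bp in het and 2056 bp in KO, against 7926 and 9518 bp over the 594 coding starts marked in both (1 start per gene). When peaks under 2 kb were left out, 2 member starts remained in het, beside 2.89% of coding genes, and 7 in KO, beside 3.94%.

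The DNA before 9 member starts is shown for its CG content and short motifs. They were picked after the motif counts were known: 7 hold the E-box described below, and Asz1 and Gtsf1 stand for the 6 marked genes that do not (Asz1, Gtsf1, Henmt1, Meioc, Spata22 and Sycp2). Each stretch is the 250 bases upstream of the annotated start, on the strand of the gene, from RefSeq (GRCm38.p6). Capitals mark the E-box letters CACGTG and the E2F-like letters TCCCGC or their reverse complement GCGGGA. Mael, Sycp1, Tex12 and Asz1 were marked in both E13.5 lists, Tdrd1, Sycp3 and Gtsf1 in KO alone, and Piwil1 and Hormad1 in no list. Their positions, in that order, are chr1:166238745-166238994 (minus), chr3:102936101-102936350 (minus), chr9:50561269-50561518 (minus), chr6:18109062-18109311 (minus), chr19:56825959-56826208 (plus), chr10:88459337-88459586 (plus), chr15:103430428-103430677 (minus), chr5:128735996-128736245 (plus) and chr3:95559427-95559676 (plus).
Mael: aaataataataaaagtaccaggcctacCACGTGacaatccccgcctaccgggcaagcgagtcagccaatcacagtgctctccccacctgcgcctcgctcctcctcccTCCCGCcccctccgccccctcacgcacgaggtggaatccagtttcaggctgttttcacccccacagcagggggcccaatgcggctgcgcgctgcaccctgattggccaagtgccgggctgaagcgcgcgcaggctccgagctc
Sycp1: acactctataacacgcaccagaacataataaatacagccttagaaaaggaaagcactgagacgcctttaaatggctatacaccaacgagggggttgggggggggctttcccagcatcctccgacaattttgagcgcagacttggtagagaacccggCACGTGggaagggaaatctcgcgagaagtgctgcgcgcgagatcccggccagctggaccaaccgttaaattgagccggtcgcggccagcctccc
Tex12: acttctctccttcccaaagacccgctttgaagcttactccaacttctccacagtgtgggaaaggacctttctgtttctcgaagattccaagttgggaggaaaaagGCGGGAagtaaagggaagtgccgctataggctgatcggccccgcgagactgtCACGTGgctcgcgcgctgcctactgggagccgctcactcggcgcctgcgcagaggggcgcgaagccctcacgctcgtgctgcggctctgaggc
Asz1: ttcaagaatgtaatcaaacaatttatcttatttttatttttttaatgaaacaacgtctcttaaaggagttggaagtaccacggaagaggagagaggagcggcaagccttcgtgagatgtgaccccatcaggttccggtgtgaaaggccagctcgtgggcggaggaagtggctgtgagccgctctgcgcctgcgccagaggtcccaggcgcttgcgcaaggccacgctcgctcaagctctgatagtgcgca
Tdrd1: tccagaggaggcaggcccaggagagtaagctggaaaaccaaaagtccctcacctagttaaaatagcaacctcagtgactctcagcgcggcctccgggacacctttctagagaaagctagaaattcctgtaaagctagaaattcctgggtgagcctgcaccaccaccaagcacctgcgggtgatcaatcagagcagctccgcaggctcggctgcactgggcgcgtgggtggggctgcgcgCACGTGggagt
Sycp3: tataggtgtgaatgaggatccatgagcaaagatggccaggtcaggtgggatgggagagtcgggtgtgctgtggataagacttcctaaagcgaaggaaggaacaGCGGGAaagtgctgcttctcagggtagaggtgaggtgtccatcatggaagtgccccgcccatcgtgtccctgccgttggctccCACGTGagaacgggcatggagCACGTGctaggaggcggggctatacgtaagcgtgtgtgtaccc
Gtsf1: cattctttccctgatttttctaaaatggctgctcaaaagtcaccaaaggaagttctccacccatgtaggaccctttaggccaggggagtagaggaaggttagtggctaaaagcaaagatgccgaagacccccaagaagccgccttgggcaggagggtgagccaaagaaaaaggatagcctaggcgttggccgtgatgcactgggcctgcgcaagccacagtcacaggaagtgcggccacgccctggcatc
Piwil1: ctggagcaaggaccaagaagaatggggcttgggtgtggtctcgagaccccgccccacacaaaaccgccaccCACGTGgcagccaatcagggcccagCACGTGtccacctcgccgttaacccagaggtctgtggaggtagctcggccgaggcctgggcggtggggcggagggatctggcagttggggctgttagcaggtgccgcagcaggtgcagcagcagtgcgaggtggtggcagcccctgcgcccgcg
Hormad1: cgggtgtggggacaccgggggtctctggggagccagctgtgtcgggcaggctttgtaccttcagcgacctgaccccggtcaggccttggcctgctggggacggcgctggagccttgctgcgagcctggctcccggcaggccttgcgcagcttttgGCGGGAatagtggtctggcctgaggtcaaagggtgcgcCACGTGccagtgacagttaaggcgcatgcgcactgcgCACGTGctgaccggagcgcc

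The E-box was frequent among the marked members. In windows from 250 bases before to 50 bases after the start, counted on both strands, the letters CACGTG occurred in 9 of 15 member windows marked at E13.5 (60%; 8 of 14 genes). They occurred in 10 of the 50 member windows that were not marked (20%; 8 of 33 genes) and in 7.84% of all 21263 coding windows. Among unmarked member windows with at least 10 CG dinucleotides they occurred in 9 of 37 (24.3%). Piwil1 and Hormad1 each held the E-box letters at 2 places and were not marked, so the letters alone did not separate the members. The E2F-like letters, which do not overlap the E-box, occurred in 6 of the 15 marked member windows (40%), in 17 of the 50 others (34.0%) and in 25.8% of coding windows. Among coding windows with at least 10 CG dinucleotides, the E-box occurred in 15% of those marked at E13.5 and in 10.9% of the others. The E2F-like letters occurred in 39.1% and 41.6% of the same windows, close to the share of the marked members, all of which had at least 10 CG.

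The marked members had CG-rich starts, whereas most marked coding genes did not. The 15 marked member windows held 10 to 31 CG dinucleotides, with a median of 21. Unmarked member windows were often CG-rich too, with a median of 18, and 74% of the 50 had at least 10 CG. The 1138 coding windows marked at E13.5 had a median of 5, and all coding windows had a median of 13. In the class of 20 to 29 CG, 6 of 19 member windows were marked in het and 9 of 19 in KO, where 1.63% and 3.46% of coding windows were. With 30 or more CG, 0 of 13 member windows were marked in het and 1 of 13 in KO, where 1.22% and 2.31% of coding windows were. None of the 13 member windows with fewer than 10 CG was marked in either E13.5 list, where 6.06% and 6.73% of coding windows in that class were. Absence of a peak over the start after E13.5 was common to most CG-rich starts marked at E13.5. Of the 15 marked member windows, 14 had the start itself in no later peak. Of the 460 coding windows with at least 10 CG that were marked at E13.5, 89.1% had the start in no later peak. For coding windows with fewer CG the figure was 16.52%. At some of the 14 the later calls differ by the placing of a peak edge. A peak lay 218 to 1031 bp from the Brdt start in every later list, and 219 bp (het) and 141 bp (KO) from Tex12 at P3. From Henmt1 it lay 695 to 917 bp away in the later het lists and E16.5 KO, and 9443 and 9648 bp in P0 and P3 KO. The windows of Brdt and Tex12 overlapped a later peak. At the other marked members, Spata22 aside, no later peak lay nearer than 8030 bp. Over all windows with at least 10 CG, 15.4% of the 52 member windows were marked in het and 28.8% in KO at E13.5, beside 1.68% and 3.42% of coding windows.

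**Figure D2:**
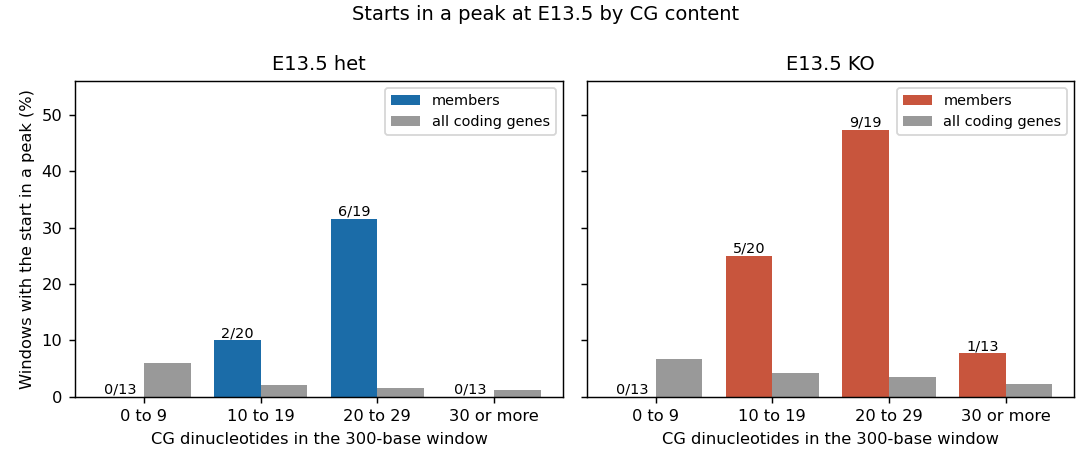
Percent of 300-base windows whose start lay in a peak at E13.5 (vertical axis) by the number of CG dinucleotides in the window (horizontal axis), for het (left) and KO (right); coloured bars are members, with counts above them, and grey bars all coding genes. The members' share is highest at 20 to 29 CG, with 6 of 19 in het and 9 of 19 in KO, and the coding genes' share is highest at 0 to 9 CG.

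Other genes of the same pathways, from a list of 30 that are not members, gave 3 marked starts of 21 in het and 4 of 21 in KO at E13.5. Both lists marked Ddx4, Rnf212 and Tex101, and the KO list also Ccnb1ip1. Ddx4, an RNA helicase of germ cells, was the only one of the 21 with a marked start at later stages, in 5 of the 6 later lists. Its other name, Mvh, is in the name of the reporter transgene that all animals carried, and the part of the transgene in this was not tested.

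Over the whole gene, the members carried H3K9me3 about as often as other genes of their length. Here a gene counted when at least 1 bp of its body with 5 kb on each side lay in a peak. In het, 28, 23, 27 and 34 of the 55 members counted, in stage order. These are 50.9%, 41.8%, 49.1% and 61.8%, beside 38.4%, 42.8%, 46.6% and 48.8% of all coding genes. In KO, 32, 20, 27 and 33 members counted, or 58.2%, 36.4%, 49.1% and 60%, beside 43%, 41.8%, 51.6% and 51.3% of coding genes. The median member spanned 38.3 kb and the median coding gene 17.2 kb, so shares were also taken over coding genes of similar length to each member. Those shares were 43.6%, 47.9%, 52.7% and 56.8% in het and 48.5%, 46.6%, 59.0% and 60.1% in KO. The members lay above them in both E13.5 lists and in P3 het, below them in both E16.5 and both P0 lists, and close to them in P3 KO.

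**Figure D3:**
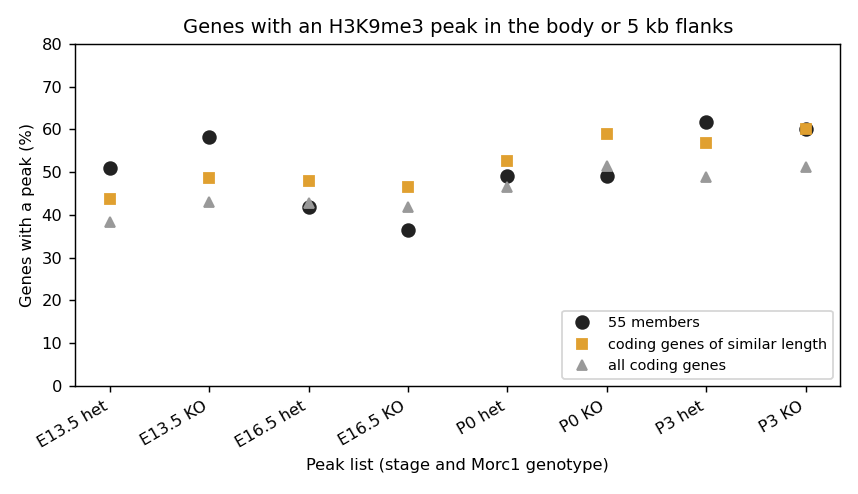
Percent of genes with a peak in the gene body or its 5 kb flanks (vertical axis) in each list (horizontal axis); circles are the 55 members, squares coding genes of similar length and triangles all 21887 coding genes. The circles lie above the squares at E13.5, at 50.9% and 58.2%, and below them at E16.5 and P0.

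A peak was found in all 8 lists at 13 members and in none at 10. The 10 were Piwil1, Dnmt3l, Nanos2, Nanos3, Dnd1, Stra8, Rec8, Syce2, Meiob and Msh5. Of coding genes of similar length, 28.8% had a peak in all lists and 23.9% in none, against 23.6% and 18.2% of the members. By the mean share of bases covered over the 8 lists, the members spread over the whole range of genes of their length, with 26 above the median of those genes and 29 below. The highest were Mov10l1, with a mean of 21.3%, above 97.8% of 1567 genes of similar length, and Mei4, with 15.8%, above 97.1% of 340.

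**Figure D4:**
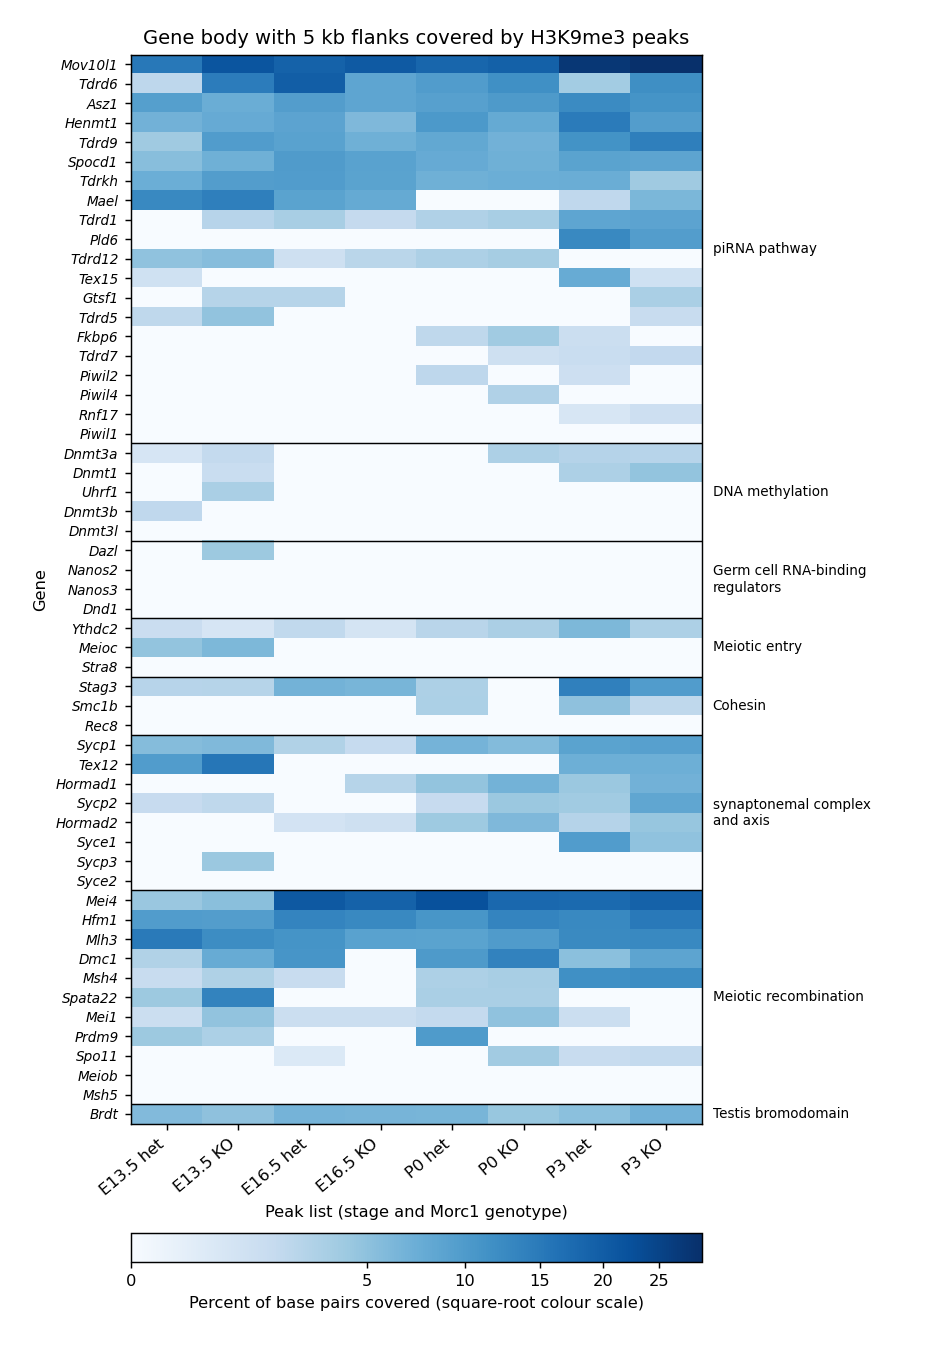
Percent of the gene body with 5 kb flanks covered by peaks, as colour on a square-root scale, for each of the 55 members (rows, grouped by role) in each of the 8 lists (columns). Mov10l1 is covered in every list, Mael is blank in both P0 lists, and the 10 rows without any peak are blank.

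Among the piRNA genes, Mov10l1 carried the most H3K9me3 for its size. Of its body with flanks, 12.5, 15.7, 15.1 and 22.7 kb were covered in het, in stage order, and 17.7, 16.9, 15.8 and 24.1 kb in KO. Both P3 lists were the highest of their genotype, and 9.92 kb were called in all 8 lists. Mael had the opposite course. It had 5.99 and 4.17 kb covered in het at E13.5 and E16.5, none at P0 and 1.00 kb at P3, and in KO 6.63, 3.74, 0 and 2.92 kb. The P0 lists of both genotypes were thus empty at Mael, after calls in all 4 embryonic lists. Asz1, with 6.36, 6.53, 6.28 and 8.46 kb in het and 5.03, 5.77, 6.88 and 7.56 kb in KO, varied little, and 2.87 kb of it were called in all 8 lists.

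Tdrd9, which encodes a helicase with a Tudor domain, had 4.27, 9.65, 8.64 and 12.1 kb in het and 10.4, 7.51, 7.27 and 15.1 kb in KO. Its E13.5 het value was the lowest and was less than the KO value at the same stage. Tdrd6, a Tudor protein of later germ cell granules, had 0.584, 5.23, 2.59 and 1.00 kb in het and 3.84, 2.24, 3.10 and 3.11 kb in KO, so het was above KO at E16.5 only. Henmt1 had 3.42, 4.40, 5.20 and 7.46 kb in het and 3.88, 3.02, 3.95 and 4.83 kb in KO.

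Spocd1 and Tex15 both act in piRNA-directed DNA methylation in the nucleus. Spocd1 was covered in all lists, from 2.07 kb (E13.5 het) to 3.79 kb (E16.5 het). Tex15 had 1.00 kb in het and none in KO at E13.5, none in either genotype at E16.5 and P0, and 6.49 kb in het against 1.00 kb in KO at P3. Tdrkh, which holds PIWI proteins at mitochondria, ranged from 1.26 kb (P3 KO) to 3.09 kb (E16.5 het). Tdrd1 had no call in E13.5 het and 1.00 to 4.66 kb in the other 7 lists. The PIWI genes themselves carried little. Piwil1 had no peak, and Piwil2 had 1.65 kb at P0 and 1.00 kb at P3 in het and none in KO. Piwil4 had 1.44 kb in P0 KO alone, outside the gene body. Pld6, a nuclease at mitochondria, was covered at P3 alone, with 1.75 kb in het and 1.31 kb in KO. Rnf17, another Tudor protein, was also covered at P3 alone, with 1.00 and 1.76 kb. Tdrd12, Tdrd5, Tdrd7, Gtsf1 and Fkbp6 had peaks in 3 to 6 lists and at most 4.37 kb in any.

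Of the 5 DNA methylation genes, 2 had a peak in E13.5 het, 3 in E13.5 KO, none in either E16.5 list or in P0 het, 1 in P0 KO and 2 in each P3 list, and none had more than 3.85 kb in any list. Dnmt3a, a de novo methyltransferase, had 1.00, 0, 0 and 3.25 kb in het and 2.32, 0, 3.85 and 3.15 kb in KO. Dnmt1, the maintenance methyltransferase, was covered in E13.5 KO (1.00 kb) and at P3, with 1.94 kb in het and 2.96 kb in KO. Uhrf1, which recruits Dnmt1, had 1.00 kb in E13.5 KO alone, and Dnmt3b had 1.00 kb in E13.5 het alone. The call at Uhrf1 lay outside its gene body, with 0.829 kb of it in another coding gene. Dnmt3l, the cofactor of fetal germ cell methylation, had none. Of Nanos2, Nanos3, Dnd1 and Dazl, only Dazl had any call, of 1.00 kb in E13.5 KO, which lay outside the gene body.

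Among genes of meiotic entry, Stra8 had no peak, and Meioc was covered at E13.5 alone, with 1.26 kb (het) and 1.62 kb (KO). Ythdc2, an RNA helicase that acts with Meioc, had calls in all lists with its flanks counted, from 0.583 kb (E13.5 KO) to 4.34 kb (P3 het). In every list a peak that ran beyond the window reached into its flank. The gene body of Ythdc2 had no call in E13.5 KO, E16.5 KO, P0 het and P3 KO. Of the cohesins, Rec8 had no peak. Stag3 had 1.27, 3.34, 1.54 and 6.97 kb in het and 1.32, 3.20, 0 and 4.86 kb in KO, and Smc1b had no call before birth, 2.48 and 3.85 kb in het at P0 and P3, and 0 and 1.66 kb in KO. All called bases of Smc1b also lay in the body of another coding gene that overlaps its window (Fam118a or Ribc2), and so could be assigned to either.

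In the synaptonemal complex and axis group, Sycp1 had the most, with 7.04, 3.67, 8.45 and 11.2 kb in het and 7.52, 2.27, 7.26 and 11.7 kb in KO. Both genotypes were lowest at E16.5 and highest at P3. Sycp2 had 1.26, 0, 1.27 and 2.83 kb in het and 1.54, 0, 3.05 and 6.03 kb in KO. Tex12 had 1.38 and 2.19 kb in het and KO at E13.5, none at E16.5 and P0, and 1.00 kb in both at P3, and its called bases also lay in a neighbouring coding gene. Hormad1 and Hormad2, which mark unpaired chromosome axes, were not called at E13.5, and at P0 and P3 they carried 1.61 to 2.62 kb and 2.86 to 6.27 kb. Syce1 was covered at P3 alone (2.002 kb in het, 1.00 kb in KO), Sycp3 in E13.5 KO alone (1.00 kb), and Syce2 in no list.

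The recombination genes held the member with the longest coverage. Mei4, needed for the DNA breaks that start recombination, spans 342.3 kb on chromosome 9 and had 15.2, 73.3, 78.3 and 61.8 kb in het and 18.5, 67.2, 63.2 and 67.2 kb in KO. Its E13.5 values were far below the 6 later ones, and without it the members' covered share in het was 3.01%, 3.402%, 3.65% and 5.31% in stage order, in place of 3.15%, 5.33%, 5.71% and 6.66%. Hfm1, a helicase of crossover formation, had 9.31, 12.8, 10.3 and 12.2 kb in het and 9.29, 12.2, 12.8 and 14.5 kb in KO. Mlh3, a mismatch repair protein that acts at crossovers, had 6.88, 5.14, 4.08 and 5.78 kb in het and 5.56, 4.13, 4.56 and 5.83 kb in KO. Both were covered in every list, and 6.76 kb of Hfm1 and 3.45 kb of Mlh3 were called in all 8 lists.

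Dmc1, the meiotic recombinase, had 1.55, 5.76, 5.42 and 2.76 kb in het and 4.11, 0, 7.29 and 4.59 kb in KO, and E16.5 KO was the one list without a call. Prdm9, which sets the positions of recombination, had calls in E13.5 het (1.30 kb), E13.5 KO (1.00 kb) and P0 het (3.13 kb). The P0 het call of Prdm9 lay outside its gene body, and the other lists had no call. Spata22 had 1.26, 0, 1.00 and 0 kb in het and 4.02, 0, 1.00 and 0 kb in KO. Msh4 had 1.00, 1.00, 1.85 and 6.90 kb in het and 1.803, 0, 2.04 and 7.10 kb in KO, whereas its partner Msh5 had no peak. Mei1 had at most 3.26 kb (P0 KO) and Spo11 at most 1.00 kb (P0 KO), and Meiob had none. All calls at Spo11 lay outside its gene body. Brdt had 3.78, 4.35, 4.20 and 3.43 kb in het and 3.25, 4.25, 2.94 and 4.51 kb in KO. Within the gene body of Brdt only the E13.5 lists had calls, of 1.295 kb in het and 0.696 kb in KO.

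Stages of 1 genotype were compared next. A gene was called when its covered length differed by at least 1 kb and at least 1.5-fold. Between E13.5 and E16.5, more KO members were called at the earlier stage than at the later, under every setting tried, whereas in het the order of the counts depended on the setting. In het, 11 members (20%) were called as covered more at E13.5, beside 7.99% of coding genes, and 9 (16.4%) as covered more at E16.5, beside 23.7%. In KO, 19 members (34.5%) were covered more at E13.5, beside 12.8% of coding genes, and 4 (Stag3, Hormad1, Hormad2 and Mei4; 7.27%) more at E16.5, beside 18%. Among genes of similar length the shares covered more at E13.5 were 9.70% in het and 15.3% in KO. Called at E13.5 in both genotypes were Tdrd5, Tdrd12, Dnmt3a, Meioc, Sycp1, Sycp2, Tex12, Spata22 and Prdm9. Of these 9, Meioc, Sycp1, Sycp2, Tex12 and Spata22 also had a marked start at E13.5, and the 2 measures share those peaks. The het counts at E13.5 and at E16.5 were 17 and 7 with equal numbers of peaks (12.4% and 15.4% of coding genes) and 12 and 12 with 10 kb flanks (8.75% and 29.4%). They turned to 4 and 7 with peaks of at least 2 kb (3.01% and 18.6%) and to 1 and 5 with a difference of at least 2 kb and 2-fold (2.23% and 12.5%). In KO the counts with peaks of at least 2 kb were 7 and 2, beside 5.99% and 14.3% of coding genes. With equal numbers of peaks in KO, coding genes too were called more often at E13.5 (14.9%) than at E16.5 (12.6%).

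From E16.5 to P0, 10 members in het were covered more at P0 (15.7% of coding genes) and 4 more at E16.5 (10.4% of coding genes). In KO the numbers were 14 (25.3% of coding genes) and 2 (5.69%). The 2 were Mael and Stag3. As shares, 18.2% of members in het and 25.5% in KO were covered more at P0, close to the shares of all coding genes. Among genes of similar length the shares were 19.4% in het and 31.2% in KO, so the KO members lay below theirs. Hormad1, Hormad2, Sycp1, Sycp2 and Fkbp6 were among those covered more at P0 in both genotypes.

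From P0 to P3, 16 members (29.1%) in het were covered more at P3, beside 15.9% of all coding genes and 21.1% of those of similar length, and 6 (10.9%) more at P0, beside 9.83%. In KO, 18 (32.7%) were covered more at P3, beside 14.1% of coding genes and 19.2% of those of similar length, and 7 (12.7%) more at P0, beside 10.6%. Called at P3 in both genotypes were Mael, Mov10l1, Tdrd1, Pld6, Rnf17, Tex15, Dnmt1, Smc1b, Stag3, Sycp2, Syce1, Tex12 and Msh4. With equal numbers of peaks the counts at P3 were 10 in het (14.3% of coding genes) and 9 in KO (13.6%).

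Het and KO were then set against each other within each stage, to ask how loss of Morc1 bears on these genes. At E13.5, 13 members (23.6%) were covered more in KO, beside 12.8% of all coding genes and 14.99% of those of similar length. They were Tdrd1, Tdrd5, Tdrd6, Tdrd9, Gtsf1, Dnmt1, Dnmt3a, Uhrf1, Dazl, Sycp3, Dmc1, Spata22 and Mei1. Tex15 and Dnmt3b (3.64%) were covered more in het, beside 3.63% of coding genes. The members' covered length in KO was 1.34 times that in het, against 1.1802 times over all coding genes and 1.14 times over the whole lists. The largest difference was at Tdrd9, with 6.10 kb more in KO. With peaks of at least 2 kb, 5 members were covered more in KO (7.41% of coding genes) and 3 more in het (1.88%).

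The E16.5 lists had more in het, both for the members and over the whole genome. Tdrd6, Gtsf1, Sycp1, Dmc1 and Msh4 (9.09%) were covered more in het, beside 4.98% of coding genes, and Hormad1 (1.82%) more in KO, beside 2.71%. The members' covered length in KO was 0.859 times that in het, against 0.922 over coding genes. Mei4, with 73.3 kb in het and 67.2 kb in KO, and Dmc1, with 5.76 kb in het and none in KO, had the largest differences.

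At P0, 7 members (12.7%) were covered more in KO, beside 15.8% of coding genes and 19.96% of those of similar length. They were Piwil4, Tdrd7, Fkbp6, Dnmt3a, Sycp2, Spo11 and Mei1. Piwil2, Smc1b, Stag3 and Prdm9 (7.27%) were covered more in het, beside 4.77%. The 4 had no call at all in KO at this stage, with 1.54 to 3.13 kb in het. The members' covered length in KO was 0.966 times that in het, which became 1.09 times without Mei4 (78.3 kb in het, 63.2 kb in KO), and was 1.16 times over coding genes.

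At P3, 9 members were covered more in KO (16.4%, beside 13.9% of coding genes and 17.6% of those of similar length) and 9 more in het (16.4%, beside 5.78% and 6.59%). Those covered more in het were Piwil2, Tdrkh, Fkbp6, Henmt1, Tex15, Ythdc2, Smc1b, Syce1 and Mei1. Those covered more in KO were Mael, Tdrd5, Tdrd6, Gtsf1, Dnmt1, Sycp2, Hormad1, Hormad2 and Dmc1. The largest difference among the called genes was at Tex15, with 6.49 kb in het and 1.00 kb in KO. With equal numbers of peaks 2 members were covered more in het (5.09% of coding genes) and 5 more in KO (9.76%).

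**Figure D5:**
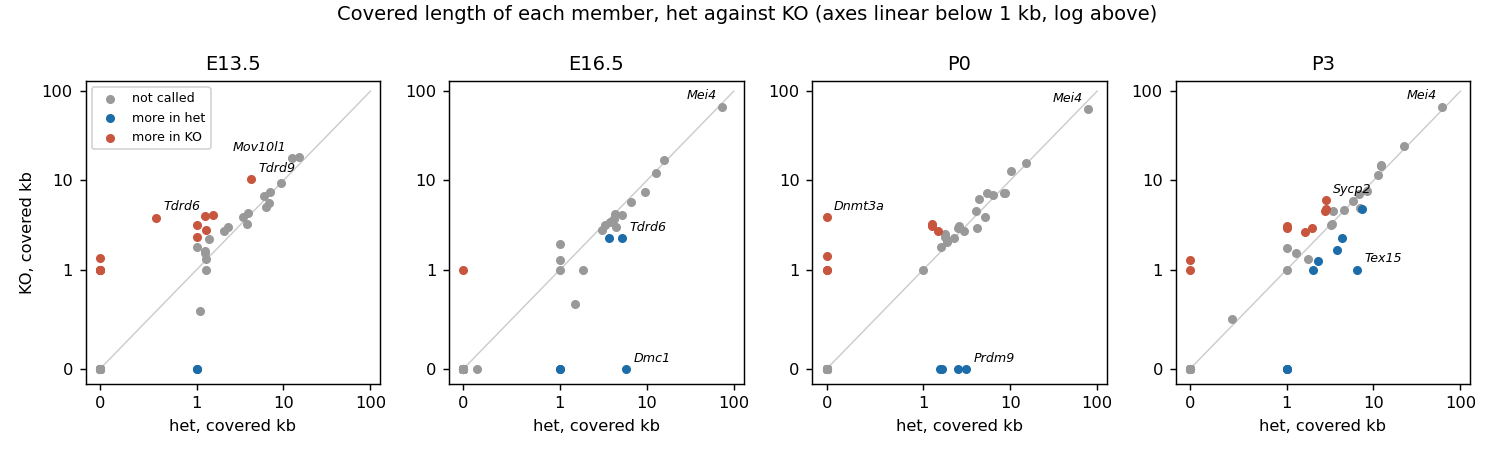
Covered length of each of the 55 members in het (horizontal axis, kb) against KO (vertical axis, kb) at each stage, on axes that are linear below 1 kb and logarithmic above; grey points were not called, blue were covered more in het and red more in KO, the line marks equal length, and the genes with the largest differences are named. Red points outnumber blue at E13.5, 13 to 2, and both colours have 9 points at P3.

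Some calls recurred over stages. Piwil2 and Smc1b were covered more in het at both P0 and P3, and Tex15 at E13.5 and P3, which makes 3 members (5.45%), beside 3.14% of coding genes with such calls at 2 or more stages. Covered more in KO at 2 stages were Tdrd5, Tdrd6, Gtsf1, Dnmt1, Dnmt3a, Sycp2, Hormad1, Dmc1 and Mei1, or 16.4% of the members, beside 10.1% of coding genes. Of these 9, Tdrd6, Gtsf1, Dmc1 and Mei1 also had the opposite call at another stage, as had Fkbp6, so that 5 members (9.09%) had calls in both directions, beside 5.9% of coding genes. For recurrent and opposite calls no share over genes of similar length was taken, and the median member is longer than the median coding gene. No member was called in the same direction at more than 2 stages. With a difference of at least 2 kb and 2-fold, 5 members (9.09%) were covered more in KO at E13.5, beside 3.04% of coding genes, and none more in het, beside 0.366%. At the later stages that rule called 0 to 2 members in either direction, where 0.288% to 4.12% of coding genes were called.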

How the data were processed

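H3K9me3 ChIP-seq was made from 16 of the 32 samples, 2 per genotype and stage, and the 16 H3 samples entered nothing here. The authors deposited 1 peak list per group, with chromosome, start and end as other positional values (in bp) and no score. Per the submitters' processing notes, build mm10, bcl2fastq 2.20, cutadapt 1.18, Bowtie2 2.3.4.1, deepTools 3.5.0 and HOMER 4.10 were used. Settings of the peak calls, the use of the H3 samples and how the samples of a group were joined are not given in the sources used here. Read depth is unknown. No source says whether the samples came from separate animals.

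Peaks were merged within a list, at most 2 mitochondrial peaks per list were left out, and the base pairs covered in each gene body with 5 kb on each side were counted (Python 3.11.15, numpy 2.4.6, pandas 2.3.3; plots with matplotlib 3.10.9). A gene had a peak with 1 bp of overlap and was called between lists at 1 kb and 1.5-fold. The code was tested on simulated data. Coding genes of similar length had 0.8 to 1.25 times a member's length. Starts and sequences came from the RefSeq promoter table (GRCm38.p6), which matched 46 of the 55 members. Not matched were Dnd1, Meiob, Piwil2, Rnf17, Spo11, Spocd1, Tdrd6, Tex15 and Ythdc2.

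The members and lists were chosen with earlier results of these data known, and the analysis of starts and its alternatives was chosen after seeing the data. Values are given for the 15 members with the greatest mean share covered, up to 5 per direction called at 2 or more stages, the largest difference per stage and direction, members with a marked start, and Morc1. Values of further members were added to account for every role. Alternatives were the gene body alone, 10 kb flanks, equal numbers of peaks, peaks of at least 2 kb, a stricter overlap and difference, a narrower length class and, for starts, other rules on distance and peak edges.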

Additional observations from a re-analysis of the deposited data

Results flagged for a closer look

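For 5 members the difference between KO and het pointed one way at 1 stage and the other way at another, each time past 1 kb and 1.5-fold. The difference between stages was not tested, since each group has 1 list. For Tdrd6, KO minus het was 3.26 (E13.5), -2.99 (E16.5) and 2.11 kb (P3). For Dmc1 it was 2.56, -5.76 and 1.83 kb at those stages. Gtsf1 gave 1.001, -1.001 and 1.28 kb at the same stages, each from a single peak in 1 of the genotypes. Its E13.5 peak began at 103430021, over the start, but the E16.5 and P3 peaks began at 103418540 and 103418680, so the sites differ. Mei1 was covered more in KO at E13.5 (2.17 kb) and at P0 (1.995 kb), and at P3 KO minus het was -1.001 kb. The P3 het peak of Mei1 began at 82120643, where the E13.5 lists had no peak and both P0 lists had a peak. For Fkbp6 KO minus het was 1.23 kb at P0 and -1.001 kb at P3, all of it in the flanks and outside the gene body.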

How the results depend on the processing

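Each group is 1 list without scores, and neither its depth nor its replicate spread is known. No paired analysis was possible because each list stands for a whole group and carries no replicate number, and for the same reason no fit without 1 replicate was run. The cause of the shifts below was not tested.

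With the gene body alone, the members' covered share was 3.19% (E13.5 het), 5.63% and 4.91% (E16.5 het, KO), 5.995% and 5.99% (P0), and 7.10% and 7.60% (P3). Under that setting 1 member in KO was covered more at E16.5 than at P0, beside 3.66% of coding genes. With 10 kb flanks the covered share was 3.05% and 4.04% (E13.5 het, KO), 5.25% and 4.47% (E16.5), 5.50% and 5.46% (P0), and 6.36% and 6.58% (P3). Here 8 members in het were covered more at E16.5 than at P0, beside 11.4% of coding genes. The narrower length class left all 8 shares of similar-length genes close to those given.

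With the longest peaks in equal numbers, the covered share was 4.11% (E13.5 KO), 4.44% and 4.03% (E16.5 het, KO), 4.70% and 4.09% (P0), and 5.06% and 5.56% (P3). Members with a peak were 17 (P0 het), 20 (P3 het) and 21 (P3 KO), given without the share of coding genes, so they do not compare members with other genes. Covered more in KO were 4 at P0 (9.49% of coding genes) and 5 at P3 (9.76%), and more in het 2 at P3 (5.09%). In het, 17 were covered more at E13.5 than at E16.5 (12.4% of coding genes) and 10 more at P3 than at P0 (14.3%). In KO, 2 were covered more at E16.5 than at E13.5 (12.6% of coding genes) and 7 more at P0 than at E16.5 (12.6%). Another 9 KO calls were more at P3 than at P0 (13.6%) and 4 more at P0 than at P3 (6.30%).

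With peaks of at least 2 kb, the covered share was 2.04% and 2.49% (E13.5 het, KO), 4.30% and 3.81% (E16.5), 4.70% and 4.15% (P0), and 4.996% and 5.56% (P3). Members with a peak were 14 and 17 (E13.5), 15 and 12 (E16.5), 17 (P0 het), and 19 and 21 (P3). The share of coding genes with a peak under this rule is not given here, so these counts do not compare members with other genes. Covered more in KO were 5 at E13.5 (7.41% of coding genes), 0 at E16.5 (1.841%) and 5 at P3 (11.28%). Covered more in het were 3 at E16.5 (4.487%) and 2 at P3 (4.103%). In het, 4 were covered more at E13.5 than at E16.5 (3.01% of coding genes) and 9 more at P3 than at P0 (12.7%). In KO, 2 were covered more at E16.5 (14.3% of coding genes) and 7 more at E13.5 (5.99%). Another 9 KO calls were more at P3 than at P0 (13.0%) and 4 more at P0 (6.65%). Marked starts were 2 in het and 7 in KO at E13.5, beside 2.89% and 3.94% of coding genes.

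With at least 2 kb and 2-fold, 5 and 0 members were covered more in KO and in het at E13.5, beside 3.04% and 0.366% of coding genes. The counts were 0 and 2 at E16.5 (0.288% and 0.690%), 1 and 2 at P0 (4.12% and 1.81%), and 2 and 2 at P3 (3.95% and 1.70%). Between stages in het, 5 were covered more at E16.5 and 1 more at E13.5 (12.5% and 2.23% of coding genes). From E16.5 to P0, 4 were covered more at P0 and 2 more at E16.5 (5.82% and 3.26%). From P0 to P3, 7 were covered more at P3 and 2 more at P0 (6.50% and 3.18%). In KO, 1 was covered more at E16.5 and 8 more at E13.5 (8.028% and 4.628% of coding genes). From E16.5 to P0 in KO, 8 were covered more at P0 and 2 more at E16.5 (10.504% and 1.535%). From P0 to P3 in KO, 6 were covered more at P3 and 3 more at P0 (5.245% and 3.075%).

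With a peak within 1 kb of the start, the later lists had 3 and 2 (E16.5 het, KO), 3 and 2 (P0) and 6 and 3 (P3) of the 46 members. Beside them, 7.31% and 6.92% (E16.5), 7.31% and 8.26% (P0) and 7.16% and 8.02% (P3) of coding genes counted. The marked start of Spata22 at P0 was lost (0 members) with equal numbers of peaks, peaks of at least 2 kb, starts near the model end, and peaks shortened by 250 bp at each end. With the last rule 6 starts in het and 13 in KO were marked at E13.5, beside 3.38% and 4.58% of coding genes.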
